A study of Mus musculus with 45 samples.

Results

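The PRAME-like family comprises 22 genes of the 55401 gene rows measured in these mouse embryonic stem cells (mESCs). The members were all rows whose symbol began with Prame, plus C87414, C87499, C87977, D5Ertd577e, AA792892, BC061212 and BC080695, and the same Ensembl identifiers were read in each of the 4 experiments. Of the 22 members, 21 matched a gene in RefSeq, the exception being the antisense RNA Pramef12os, and 27 further genes that RefSeq names Pramel but the annotation lists under other names were kept apart as relatives. Member names follow the annotation of the data. RefSeq now calls Pramef25 Pramel16, Pramef6 Pramel11, Pramef17 Pramel14, BC080695 Pramel20, BC061212 Pramel37, Pramef8 Pramel12 and Pramef12 Pramel13.

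PRAME was first described as a tumour antigen, and the family's proteins are built from leucine-rich repeats. The family grew by repeated duplication in rodents, so that members lie side by side and resemble each other, and many are known from the germ line and the cleavage-stage embryo. PRAME is known as a substrate receptor of a CUL2 ubiquitin ligase and as a repressor of retinoic acid receptor signalling, while PRAMEL7 is known to promote degradation of UHRF1, the partner of the maintenance DNA methyltransferase DNMT1. EHMT2 is a histone methyltransferase that deposits H3K9me2, a mark of silent chromatin.

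The 45 libraries formed 15 groups of 3, in 4 experiments. In the time course and the washout, EHMT2-dTAG-mcherry cells (clones E2-17, E2-20 and E2-K71, strain BL6/129) carried a degron and a mCherry reporter at both Ehmt2 alleles, the DMSO controls included. They received DMSO or the degrader dTAG for 24 h, 7 d or 15 d, or dTAG for 7 d and then 8 d without it (Recovery). In the sorted experiment, EHMT2-dTAG-mcherry-mervl-gfp cells of 1 clone, with an added GFP reporter driven by the endogenous retrovirus MERVL, received DMSO or dTAG for 72 h. They were then sorted by GFP, the negative fraction being called mESC and the positive fraction 2CLC, for 2-cell-like cell, a rare state of the culture that resembles the 2-cell embryo. In the Dppa4 experiment, 3 clones each of WTJ1 and DPPA4KO cells were kept for 48 h in DMSO or in UNC0638, which blocks the enzyme activity of EHMT2 and its partner EHMT1. The DPPA4KO cells lacked Dppa4 through CRISPR/Cas9. DPPA4 is a chromatin factor upstream of the 2-cell programme.

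Library values were available here for the Dppa4 experiment, whose 12 libraries held 8399885 to 12710949 gene reads. For the other 3 experiments the tables held the authors' mean normalized count per group, without error, so that their differences are described and not tested. A member was counted there as higher or lower when log2(group mean + 1) differed by at least 1, and each count is set beside the share of all genes past the same limit. A member counts as measured where it was above 0 in at least 1 of the groups compared. Values were not compared across experiments, which were normalized separately. The pluripotency genes of a list of 8 were all detected in every group, and genes of a list of 8 fibroblast markers were detected too, the cells having been grown on feeder fibroblasts (summed normalized count 3931 to 16427 over the 11 groups). In bulk samples, fewer cells of a type and less RNA per cell cannot be told apart. Dppa4 itself was at 700.4, 868.4 and 920.5 normalized counts in the 3 WT DMSO libraries and had no read in any of the 6 KO libraries. Ehmt2 RNA does not report on the degron, which acts on the protein.

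The members lay in 5 places in the mouse genome (GRCm38). Pramel7 and Pramel6 formed a divergent pair on chromosome 2 between 87489087 and 87510872. A cluster of 12 members spanned 1014 kb of chromosome 4, from Pramel1 at 143394428 to the end of Pramef12 at 144408464, and C87499 stood alone on the same chromosome. BC061212, AA792892, C87414 and D5Ertd577e lay on chromosome 5 between 93634993 and 95485587. Prame, Pramel3 and the pseudogene Pramel lay on the X chromosome between 135270853 and 135627705. Of the 22, 20 were annotated as protein-coding.

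In the DMSO groups of the time course and the washout, the family was carried by 3 members of the chromosome 4 cluster. In the DMSO 7 d group, Pramef12 had a mean normalized count of 737, Pramef8 of 518 and Pramel1 of 71.4, whereas every other member was at or below 11.5. Per kb of exon the order was the same, with 287 for Pramef12, 124 for Pramef8 and 25.6 for Pramel1. Of the 22 members, 7 were listed at 0 in that group. The heatmap of group means shows these 3 rows as bright in all 11 groups, with the rest of the family dark in the DMSO columns of the time course and the washout.

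**Figure D1:**
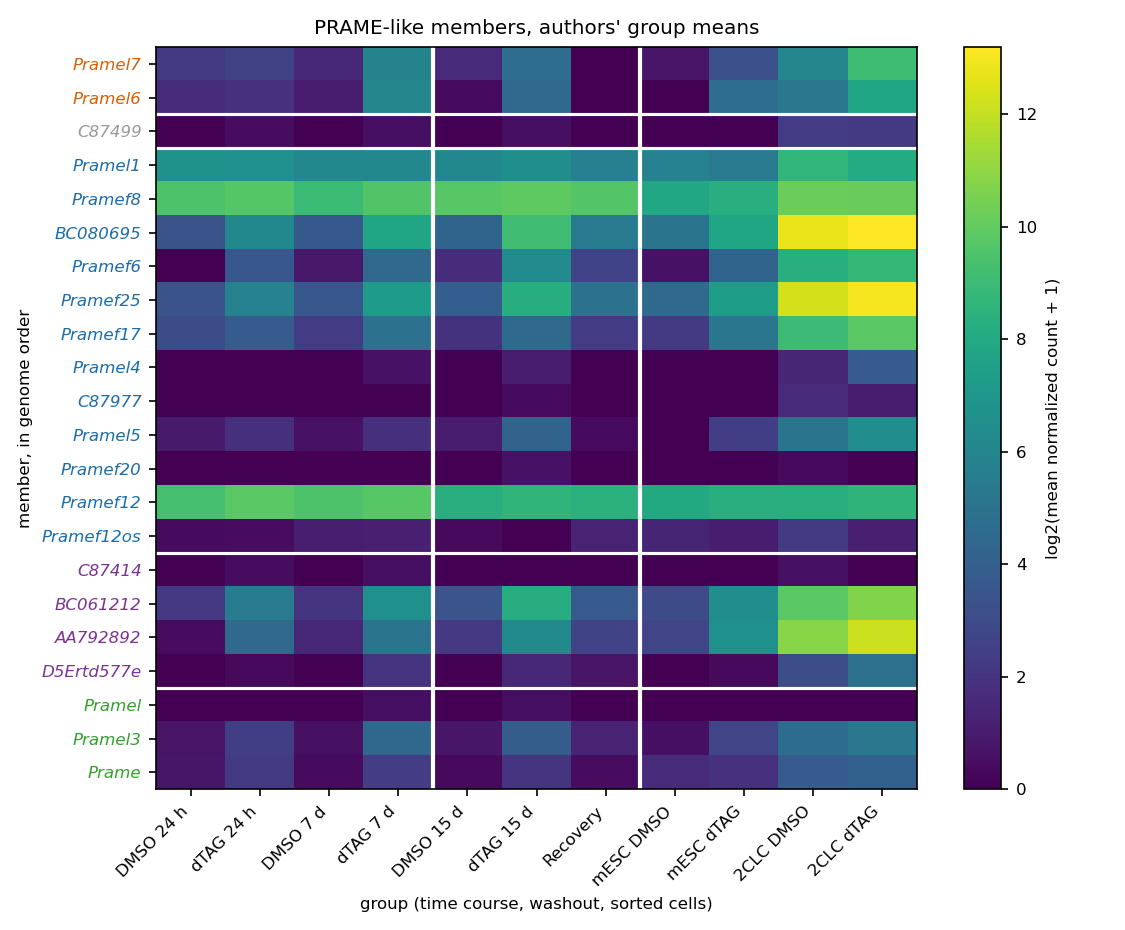
Mean normalized counts of the 22 PRAME-like members (rows, in genome order, labels coloured by locus) in the 11 groups with group means (columns), as log2(mean + 1); white lines separate the experiments and the loci. Pramef12, Pramef8 and Pramel1 are bright in every column, while BC080695 and Pramef25 reach their highest means in the 2CLC columns.

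RefSeq promoter windows (GRCm38.p6, 250 bases before to 50 bases after the annotated start) were found for 18 of the 22 members. Those of the 7 members that the results below turn on are printed 5′ to 3′, with each CG dinucleotide in capitals, to show windows of members that were high and low in DMSO and how near the promoters of Pramel7 and Pramef17 are to each other. The Pramef12 window is chr4:144408415-144408714, minus strand. The Pramel1 window is chr4:143394191-143394490, plus strand. The Pramel6 window is chr2:87506315-87506614, plus strand. The Pramel7 window is chr2:87492369-87492668, minus strand. The Pramef17 window is chr4:143994320-143994619, minus strand. The Pramef25 window is chr4:143950967-143951266, minus strand. The BC061212 window is chr5:94070496-94070795, minus strand.
Pramef12: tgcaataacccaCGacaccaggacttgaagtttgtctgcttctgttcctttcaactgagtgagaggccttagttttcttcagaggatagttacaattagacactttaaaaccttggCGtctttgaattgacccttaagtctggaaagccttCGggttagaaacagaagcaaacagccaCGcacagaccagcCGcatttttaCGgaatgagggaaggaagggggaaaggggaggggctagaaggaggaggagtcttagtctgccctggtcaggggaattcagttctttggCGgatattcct
Pramel1: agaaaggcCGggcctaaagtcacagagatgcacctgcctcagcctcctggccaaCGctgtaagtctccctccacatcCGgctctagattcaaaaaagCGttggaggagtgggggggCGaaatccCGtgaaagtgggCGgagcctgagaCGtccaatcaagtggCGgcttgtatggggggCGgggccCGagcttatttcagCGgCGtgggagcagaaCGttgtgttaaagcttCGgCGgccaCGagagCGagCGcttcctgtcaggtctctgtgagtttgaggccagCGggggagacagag
Pramel6: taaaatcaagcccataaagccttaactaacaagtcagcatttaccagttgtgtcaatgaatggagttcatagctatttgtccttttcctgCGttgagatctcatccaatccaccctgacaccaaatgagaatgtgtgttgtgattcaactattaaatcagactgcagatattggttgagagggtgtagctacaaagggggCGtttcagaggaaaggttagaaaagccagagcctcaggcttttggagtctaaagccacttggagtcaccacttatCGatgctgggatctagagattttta
Pramel7: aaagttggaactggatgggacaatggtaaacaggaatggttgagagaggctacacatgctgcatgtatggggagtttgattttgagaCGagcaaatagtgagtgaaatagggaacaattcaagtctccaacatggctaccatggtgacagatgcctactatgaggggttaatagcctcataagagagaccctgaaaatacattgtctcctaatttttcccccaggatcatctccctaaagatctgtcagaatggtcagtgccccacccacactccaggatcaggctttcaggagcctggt
Pramef17: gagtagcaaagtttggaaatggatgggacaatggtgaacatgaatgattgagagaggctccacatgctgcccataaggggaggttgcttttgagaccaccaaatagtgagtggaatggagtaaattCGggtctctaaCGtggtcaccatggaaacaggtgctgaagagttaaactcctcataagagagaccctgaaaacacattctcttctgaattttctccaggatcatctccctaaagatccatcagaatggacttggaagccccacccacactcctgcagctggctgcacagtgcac
Pramef25: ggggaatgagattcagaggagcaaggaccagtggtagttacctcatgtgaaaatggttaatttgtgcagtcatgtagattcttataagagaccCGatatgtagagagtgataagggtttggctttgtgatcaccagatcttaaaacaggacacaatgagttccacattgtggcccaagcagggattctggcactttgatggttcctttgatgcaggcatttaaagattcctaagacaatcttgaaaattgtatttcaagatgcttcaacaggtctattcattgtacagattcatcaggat
BC061212: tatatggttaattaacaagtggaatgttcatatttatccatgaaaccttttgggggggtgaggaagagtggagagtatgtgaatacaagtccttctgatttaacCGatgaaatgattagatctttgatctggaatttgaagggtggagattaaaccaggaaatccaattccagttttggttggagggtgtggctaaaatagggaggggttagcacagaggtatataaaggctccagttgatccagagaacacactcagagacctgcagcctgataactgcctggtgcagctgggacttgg

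Pramef12 had 7 CG dinucleotides in its window, which is the median of the 32851 RefSeq mouse promoter windows, and Pramel1 had 20. Among the members that were low in DMSO, the windows of Prame and Pramel3 each held 9. The other 14 windows held 0 to 3, and 31.4% of all windows held at most 3. The window of Pramef8 was not in the table. The promoters of Pramel7 and Pramef17, which lie on different chromosomes, had 239 of 300 bases identical in a global alignment (79.7%), second among the 153 pairs of members only to Pramel4 and Pramel5 (89.0%). The median pair was 59.3% identical. The start that RefSeq gives for Pramel7 lay 4675 bases inside the gene model of the data, and that for BC080695 lay 15767 bases inside. The TATA box, searched as TATAAA on both strands, was in the windows of BC080695, BC061212 and Pramel and in 13.6% of all windows.

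**Figure D2:**
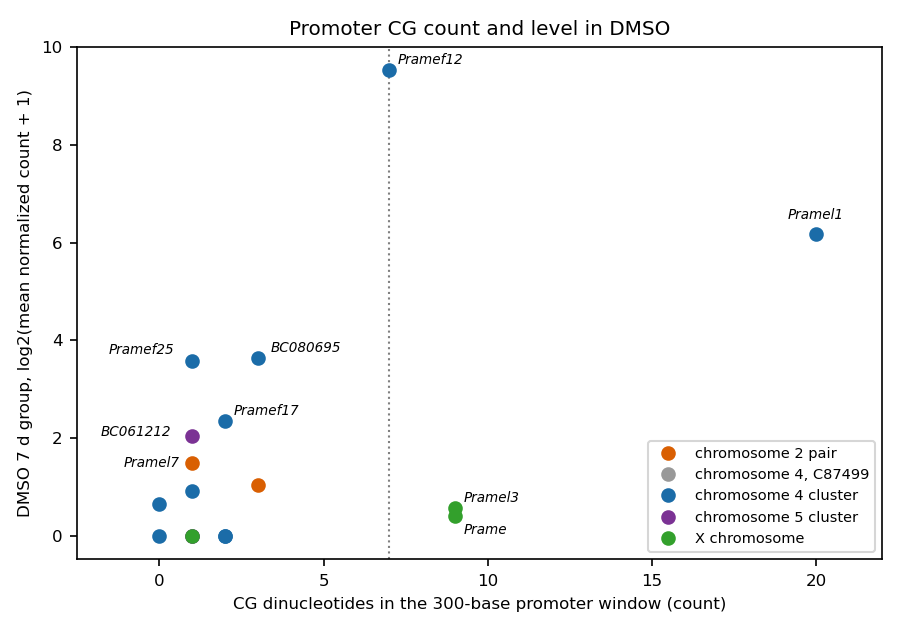
CG dinucleotides in the promoter window (horizontal axis) and mean level in the DMSO 7 d group (vertical axis, log2(mean normalized count + 1)) of the 18 members with a window; colours mark the loci and the dotted line the median of all windows, 7. Pramef12 and Pramel1 stand at or right of the line with high levels, Prame and Pramel3 right of it with low levels, and all other members left of it.

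The first comparison asked which members responded to loss of EHMT2 and how soon. After 24 h of dTAG, 7 of 18 measured members were higher than in DMSO and none lower, where 8.78% of 31593 genes passed the limit, 5.33% higher and 3.46% lower. The 7 were BC080695, Pramef6 and Pramef25 of the chromosome 4 cluster, BC061212 and AA792892 of chromosome 5, and Pramel3 and Prame of the X chromosome. The mean of BC080695 was 9.30 in DMSO and 70.7 in dTAG, that of Pramef25 was 9.47 and 57.3, and that of BC061212 was 3.51 and 41.8. These are ratios of 7.61, 6.06 and 11.9. Pramef6 was listed at 0 in DMSO and at 11.0 in dTAG. Pramel3 was at 0.63 and 4.46, and Prame at 0.71 and 3.75. The means of Pramel3 and Prame lie near 0 and have no error, so their early rise is uncertain. With a pseudocount of 5 in place of 1, 5 members were higher at 24 h, and with 0.5, 8 were. The chromosome 2 pair was not among the 7: Pramel6 was at 2.24 and 2.63, and Pramel7 at 3.80 and 4.80.

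After 7 d, 12 of 20 measured members were higher and none lower, where 12.2% of genes passed the limit, 7.08% higher and 5.14% lower. Pramel6 and Pramel7 had joined, with means of 1.05 in DMSO and 67.6 in dTAG for Pramel6, and of 1.80 and 59.2 for Pramel7. Their ratios were 64.1 and 32.9, and of the members above 0 in both groups Pramel3, at 0.48 and 20.5, lay between them with 42.4. The DMSO means of Pramel6, Pramel7 and Pramel3 lie near 0, so the size of these ratios is uncertain. BC080695 was at 11.5 in DMSO and 212 in dTAG, Pramef25 at 11.0 and 158, and BC061212 at 3.12 and 97.2. Pramef17 was at 4.11 and 29.8. The 3 members that were high in DMSO did not pass the limit: Pramef12 was at 737 and 867, Pramef8 at 518 and 769, and Pramel1 at 71.4 and 69.8. Set against the effect at 24 h, the effect at 7 d was larger by at least 1 on the log2 scale for 8 of 20 members, where 14.5% of genes differed so, 7.54% upward and 6.92% downward. The widest gaps were those of Pramel6 (4.89) and Pramel7 (4.15). For Pramef6 the effects at 24 h and 7 d were 3.59 and 3.61, and for AA792892 they were 4.17 and 3.60.

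After 15 d of dTAG, 13 of 21 measured members were higher and none lower, where 9.21% of genes passed the limit, 7.45% higher and 1.75% lower. BC080695 was at 17.7 in DMSO and 564 in dTAG, Pramef25 at 14.1 and 300.1, and BC061212 at 10.3 and 298. Pramel6 was at 0.33 and 22.9, and Pramel7 at 2.10 and 25.5. Pramel5, a further member of the chromosome 4 cluster, was at 1.05 and 17.2. After 8 d without dTAG, most of these differences had closed. Against continued dTAG, 12 of 21 members were lower and 1 higher in Recovery, where 10.8% of genes passed, 8.53% lower and 2.23% higher. The 1 was Pramef12os, at 0 in dTAG and 1.51 in Recovery, which is outside the rule for named members and is named after its values were seen. Against DMSO, 2 of 16 members were higher and 1 lower, where 5.15% of genes passed, 2.85% higher and 2.29% lower. The 2 were BC080695, at 17.7 in DMSO and 43.2 in Recovery, and Pramef25, at 14.1 and 30.1. Pramel7 was the lower one, at 2.10 in DMSO and listed at 0 in Recovery, as was Pramel6. Levels of this size rest on few reads, and no error is at hand for them.

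The summed normalized count of the family was 1502.8 at DMSO 24 h, 2089 at dTAG 24 h, 1364 at DMSO 7 d and 2416 at dTAG 7 d, and it was 1308 in DMSO, 2884 in dTAG and 1315 in Recovery at 15 d. The sum moved less than most members. The highest single member, Pramef12 or Pramef8, made up 33.2% to 66.7% of it in these groups. The 2-cell-like markers moved with the members: 10 of 10, Zscan4c, Zscan4d, Zscan4f, Duxf3, Zfp352, Tcstv1, Tcstv3, Usp17lb, Gm4340 and Tmem92, were higher in dTAG at 24 h, 7 d and 15 d. The shares of all genes higher at these times were 5.33%, 7.08% and 7.45%. The summed level of the markers was 199 and 2348 at 24 h, 326 and 7393 at 7 d, and 608, 14405 and 950.2 in the DMSO, dTAG and Recovery groups at 15 d. The part of a larger 2-cell-like fraction in the bulk values was not tested. The sorted cells give each fraction separately. Of the fibroblast list, 5 of 8 genes were lower in Recovery than in DMSO, where 2.29% of all genes were.

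**Figure D3:**
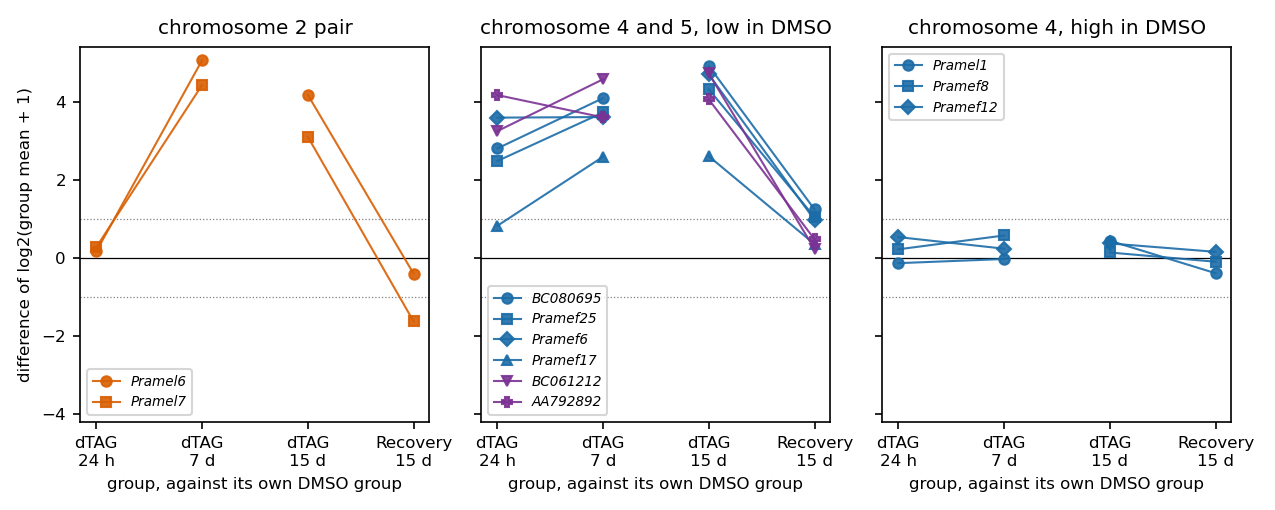
Difference of log2(group mean + 1) from the matching DMSO group for 11 members after 24 h and 7 d of dTAG (time course) and after 15 d of dTAG or Recovery (washout); lines join groups of 1 experiment and dotted lines mark differences of 1 and -1. Pramel6 and Pramel7 are near 0 at 24 h and above 4 at 7 d, Pramef17 is just below 1 at 24 h, the other 5 low members of chromosomes 4 and 5 are above 2 already at 24 h, and Pramel1, Pramef8 and Pramef12 stay within 1 of their controls.

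The sorted cells asked whether the members belong to 2CLCs and whether EHMT2 acted on them within each fraction. In DMSO, 17 of 21 measured members were higher in 2CLCs than in GFP-negative mESCs and none lower, where 26.7% of 34215 genes passed the limit, 18.6% higher and 8.04% lower. BC080695 was at 32.4 in mESCs and 7178 in 2CLCs, Pramef25 at 23.0 and 5295, AA792892 at 5.75 and 1854, and BC061212 at 7.02 and 912. These are ratios of 222, 230.4, 322 and 129.9. Pramef6, at 0.54 and 325, had a ratio of 599, and Pramef17, at 523 in 2CLCs, had one of 141. The mESC mean of Pramef6 lies near 0, so the size of its ratio is uncertain. Pramel7 was at 0.62 and 62.3, and Pramel6 was listed at 0 in mESCs and at 38.1 in 2CLCs. Of the members high in every group, Pramef8 was at 231 and 1196 and Pramel1 at 57.0 and 413, whereas Pramef12 was at 257 and 323 and did not pass the limit. Per kb of exon, BC080695 (3353) and Pramef25 (3144) led the family in the DMSO 2CLCs, followed by AA792892 (907), BC061212 (481) and Pramef17 (298). The summed family level was 622 in mESCs and 18209 in 2CLCs.

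With dTAG, 17 of 19 measured members were higher in 2CLCs than in mESCs, where 25% of genes passed, 16% higher and 8.92% lower. Within the GFP-negative mESCs, 10 of 16 members were higher with dTAG than with DMSO and none lower, where 12.5% of genes passed, 8.61% higher and 3.86% lower. BC080695 was at 32.4 in DMSO and 221 in dTAG, Pramef25 at 23.0 and 166, AA792892 at 5.75 and 96.0, and Pramel6 at 0 and 25.1. Within the 2CLCs, 6 of 21 members were higher and 1 lower, where 15.1% of genes passed, 7.41% higher and 7.69% lower. The 6 were Pramel7 (62.3 and 555), Pramel6 (38.1 and 218), Pramel5 (33.2 and 87.3), AA792892 (1854 and 4491), Pramel4 (1.65 and 13.2) and D5Ertd577e (7.75 and 28.4). The lower one was Pramef12os (3.68 and 1.22). D5Ertd577e too is outside the rule and named after its values were seen. BC080695 was at 7178 and 9394, a ratio of 1.31, and Pramef25 at 5295 and 8377, a ratio of 1.58.

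The effect of dTAG was smaller in 2CLCs than in mESCs by at least 1 on the log2 scale for 9 of 21 members and larger for 2, where 18.8% of genes differed so, 12.4% downward and 6.44% upward. BC080695 differed by 2.74 in mESCs and 0.39 in 2CLCs, Pramef6 by 3.60 and 0.42, and BC061212 by 3.49 and 0.85. Pramel7 was apart from them, with differences of 2.54 and 3.14, and Pramel6 had 4.71 and 2.48. The mESC DMSO mean of Pramel7 was 0.62, near 0, so which of its effects was larger is uncertain. As ratios of the means, they were 13.6 in mESCs and 8.91 in 2CLCs. The 2 members with a larger effect in 2CLCs were Pramel4 and D5Ertd577e. In mESCs, Pramel4 was at 0 with DMSO and with dTAG, and D5Ertd577e was at 0 and 0.26. An effect in mESCs could therefore hardly be measured for them.

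**Figure D4:**
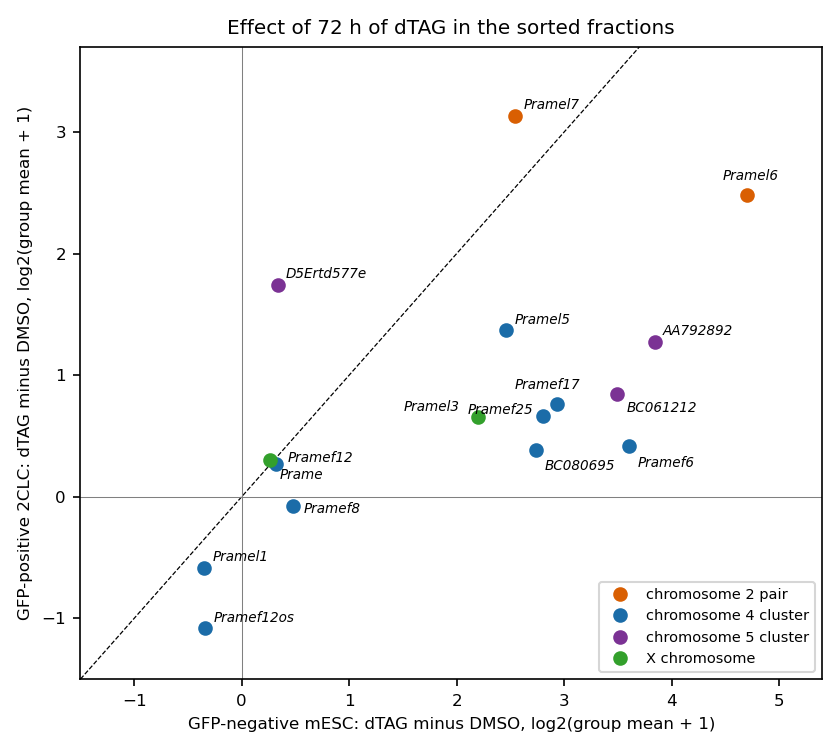
Difference between dTAG and DMSO, as log2(group mean + 1), in GFP-negative mESCs (horizontal axis) and GFP-positive 2CLCs (vertical axis) for the 16 members measured in both comparisons; the dashed line marks equal effects and colours mark the loci. Pramel7 lies above the line at 2.54 and 3.14, but its mESC DMSO mean is near 0, so this order is uncertain. Pramel6 has the widest effect in mESCs at 4.71. Pramef6, BC061212, BC080695, AA792892, Pramef25 and Pramef17 lie far below the line, with effects between 0.39 and 1.28 in 2CLCs.

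GFP-negative cells held some 2-cell-like RNA. The summed level of the 10 2-cell-like markers was 902 in DMSO mESCs and 11178 in dTAG mESCs, against 178599 and 314156 in the 2CLCs, and 10 of 10 were higher with dTAG in the mESCs. Expressed as a share of the level in 2CLCs with dTAG, the markers stood at 3.56% in the GFP-negative cells (1.05% to 11.1% for single markers). BC080695 stood at 2.36%, Pramef25 at 1.99%, AA792892 at 2.14% and Pramel7 at 1.52%, within the range of the markers. Pramel6, at 11.5%, stood barely above that range. Pramel3 at 14.9%, Pramel1 at 16.2%, Prame at 16.5%, Pramef8 at 28.4% and Pramef12 at 82.1% stood further above it. Pramel4, at 0%, and D5Ertd577e, at 0.92%, stood below it. These shares come from group means without error. The part of residual 2CLCs in the values of the GFP-negative cells was not tested. Of the fibroblast list, 4 of 8 genes were higher with dTAG in the mESCs and 5 of 8 in the 2CLCs, where 8.61% and 7.41% of all genes were. The part of fibroblast RNA was not tested either.

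The Dppa4 experiment asked which members need DPPA4, and gave library values. Of the 22 members, 17 had a read in at least 1 of the 12 libraries and 8 passed the filter on low counts. Members that passed only through the group where they were high had to differ, so counts over the 8 do not stand for the family. The third KO UNC0638 library stood apart from the first and second of its group, with a chi-square per gene of 55.5 and 40.8 against them, where these differed by 16.2. Differences are log2 fold changes on the log2(normalized count + 1) scale with their standard errors (SE), tested with limma across all 17258 genes that passed the filter and called at an adjusted p under 0.05 and an absolute change of at least 1.

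Pramel6 was at 6.98, 0 and 0 normalized counts in the 3 WT DMSO libraries and at 46.7, 38.3 and 21.6 in the WT UNC0638 libraries. In the KO it was at 0, 0 and 0 in DMSO and at 21.2, 109 and 28.8 in UNC0638. All UNC0638 libraries thus lay above all DMSO libraries in both genotypes. Such separation was seen for 2 of 17 members with reads in WT, both higher, where 7.73% of genes were higher and 6.21% lower without overlap. In the KO, 3 were higher and 1 lower, where the shares were 5.77% and 5.18%. In the KO, Pramel6 rose by 5.38 (SE 0.88, limma adjusted p = 0.0180), on 157 reads against 0, or at least 47.4-fold against the limit of 3 reads that a count of 0 over the group allows. It was the 1 member called in this contrast, among 80 genes called (0.464%), of which 71 rose (0.411%) and 9 fell (0.0521%). Having no KO DMSO read, Pramel6 passed the filter through its UNC0638 libraries and could only rise in this contrast. The p-values and the call in the KO are therefore no support for a rise. Without the second KO UNC0638 library the call was lost (4.68, adjusted p = 0.145). Without the third, which stood apart, it held (5.62, adjusted p = 0.0329), while the calls over all genes became 31. In WT the change was 4.12 (SE 0.88) and 16.4-fold, with 121 reads against 6, but the adjusted p was 0.457 in limma, and no gene passed in that contrast (0%). At an unadjusted p under 0.05, 1504 genes did, and DESeq2 called 13 genes there and edgeR 0, none of them a member. For Pramel6 in WT, DESeq2 gave adjusted p = 0.0542 and edgeR gave adjusted p = 0.608. The difference between the effects in KO and WT was 1.26 (SE 1.24, adjusted p = 0.836). In this contrast of effects limma called no gene (0%), with 1076 at an unadjusted p under 0.05.

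Pramel7 was at 0, 7.38 and 1.75 in WT DMSO and at 15.0, 1.87 and 13.6 in WT UNC0638, which overlap. In the KO it was at 4.89, 2.04 and 0 in DMSO and at 13.8, 25.8 and 6.11 in UNC0638, which do not overlap. Its changes were 1.62 (SE 1.02, adjusted p = 0.596) in WT and 2.43 (SE 1.02, adjusted p = 0.263) in the KO by limma, so that neither passed. Both members of the chromosome 2 pair were thus detected in KO libraries with UNC0638, while each of the 10 2-cell-like markers was without a read in all 6 KO libraries. Of 7 markers tested, 5 fell in the KO in DMSO and 7 in UNC0638, where 3.1% and 2.31% of all genes fell. With no KO read, these 7 had passed the filter through WT alone and could only fall, so this count is no support.

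Members of the chromosome 4 cluster divided in the KO. Pramef25 was at 15.1, 0 and 17.5 in WT DMSO and at 9.69, 6.54 and 80.6 in WT UNC0638, and had no read in any KO library. With UNC0638, this is at least 36.3-fold lower in the KO (119 reads in WT against 0). The fitted change was -4.23 (SE 1.22) and missed the threshold in limma at adjusted p = 0.0590, while edgeR gave adjusted p = 0.0421. With no KO read, Pramef25 passed the filter through its WT libraries alone and could only be lower in the KO. These p-values are therefore no support for a lower level, and 101 of its 119 WT reads with UNC0638 came from the third library. Pramef6, with WT values of 0, 7.38 and 7.87 in DMSO and 2.64, 0.93 and 19.2 in UNC0638, and BC080695, with 0, 1.23 and 10.5 and then 4.40, 0 and 15.2, were without a read in all 6 KO libraries too. Those were at least 8.54-fold and at least 7.32-fold lower with UNC0638, and neither passed the filter on low counts. BC061212 of chromosome 5 was at 21.1, 7.47 and 63.1 in WT UNC0638 and at 1.84, 3.23 and 0 in KO UNC0638, a change of -3.32 (SE 0.99, limma adjusted p = 0.0672), or 20.3-fold lower on 5 reads against 111, while DESeq2 gave adjusted p = 0.00841. BC061212 too passed the filter through its WT libraries, with at most 6 reads in any KO library. Limma called none of the members in KO against WT with UNC0638, among 567 genes called (3.29%), of which 0.973% were higher and 2.31% lower. Without overlap, 4 of 17 members were lower and 2 higher in the KO with UNC0638, where 10.2% and 7.07% of genes were, and 1 was lower and 2 higher in DMSO, where 10.5% and 8.27% were.

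Pramef17 behaved otherwise than its neighbours. It was at 30.3, 8.61 and 1.75 in WT DMSO, 145, 8.41 and 26.3 in WT UNC0638, 28.4, 67.2 and 56.9 in KO DMSO, and 144, 205 and 89.9 in KO UNC0638. The KO libraries were thus above most WT libraries, and the UNC0638 libraries of the KO lay above its DMSO libraries. The change between genotypes was 2.38 (SE 0.86, limma adjusted p = 0.103) in DMSO and 2.06 (SE 0.86, adjusted p = 0.188) in UNC0638. The first WT library of each treatment decided these calls: without the DMSO library the change was 3.25 (adjusted p = 0.0341) in DMSO, and without the UNC0638 library it was 3.12 (adjusted p = 0.0474) in UNC0638. Of the 100-base stretches of the Pramef17 transcript, 56.3% also occurred in its relative Gm13128 (Pramel30 in RefSeq), whose promoter window was 97.7% identical, so their reads could not be told apart there. Gm13128 was at 28.4, 74.4 and 38.3 in KO DMSO and at 190.4, 435 and 117 in KO UNC0638. Of the 27 relatives, 21 had reads in WT UNC0638 and 3 in KO UNC0638, and the 3 were Gm13128, Gm7978 and Gm13119, named after their values were seen. All 100-base stretches of BC061212 also occurred in Gm7978, so reads of BC061212 could not be told apart from those of Gm7978.

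The members that were high in DMSO were detected in all KO libraries. Pramef12 was at 1123, 619 and 688 in WT DMSO and at 1740, 1905 and 1741 in KO DMSO. It rose by 1.20 (SE 0.20, limma adjusted p = 0.00307), and was the 1 member called in this contrast, among 765 genes called (4.43%), of which 1.33% were higher and 3.1% lower. With UNC0638 the change was 0.67 (SE 0.20, limma adjusted p = 0.0673), with 903, 791 and 754 in WT and 1510, 1335 and 1086 in the KO. Pramef8 was at 653, 649 and 705 in WT DMSO and at 1023, 1304 and 1399 in KO DMSO. Its change of 0.88 (SE 0.18, limma adjusted p = 0.0108) passed the test but not the fold limit, which it passed without the first KO DMSO library (1.01, limma adjusted p = 0.0162). Pramel1 was at 95.4, 23.4 and 39.3 in WT DMSO and at 33.3, 68.3 and 54.6 in KO DMSO, which overlap (0.16, SE 0.58, limma adjusted p = 0.898). UNC0638 changed none of these 3 past the threshold in either genotype. Marker lists differed between the genotypes too. In DMSO, the summed level of the 8 pluripotency genes was 47293 to 63425 in WT and 66480 to 68340 in the KO, and that of the 8 fibroblast genes was 4636 to 6069 and 3926 to 4357, without overlap in either list. Of the pluripotency genes 1 passed, Klf4, which rose by 1.01 (SE 0.16, limma adjusted p = 0.00250), and no fibroblast gene of 6 tested did. Among these 6, Thy1 had a change of -0.92 (SE 0.22, limma adjusted p = 0.0228), which passed the test but not the fold limit. The part of these differences in the values of Pramef12 and Pramef8 was not tested. The summed family level was 1588 ± 313 (SD, n = 3) in WT DMSO, 1748 ± 246 in WT UNC0638, 3150 ± 271 in KO DMSO and 2575 ± 335 in KO UNC0638, and it followed Pramef12 and Pramef8.

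**Figure D5:**
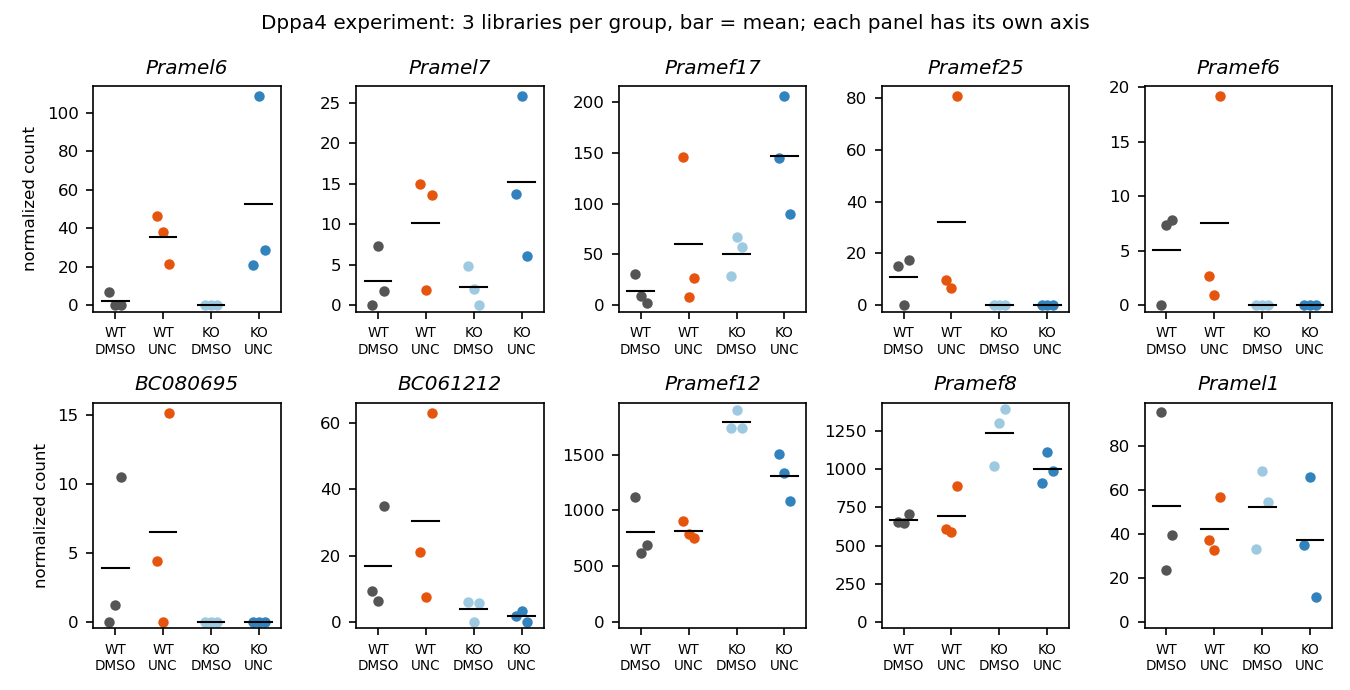
Normalized counts of 10 members in the 12 libraries of the Dppa4 experiment (points) with the mean of each group of 3 (bars); every panel has its own linear axis from 0. Pramel6 is high only in UNC0638 columns of both genotypes, Pramef25, Pramef6 and BC080695 are at 0 in both KO columns, and Pramef12 and Pramef8 are higher in both KO columns than in the WT columns.

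Within WT, the level of the 2-cell-like markers differed widely between libraries. Their summed level was 137, 417 and 2020 in the 3 DMSO libraries and 1025, 1285 and 8045 in the 3 UNC0638 libraries. The library with the most marker RNA, the third with UNC0638, also had the most Pramef25 (80.6), BC061212 (63.1), Pramef6 (19.2) and BC080695 (15.2), but not the most Pramel6 (21.6) or Pramef17 (26.3). The library with the least, the first in DMSO, had the highest Pramef12 (1123) and Pramel1 (95.4) of the WT libraries. The 4 members named first were picked after their values were seen. The part of the 2-cell-like fraction in the WT values was not tested.

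The remaining named members were low throughout the Dppa4 experiment. Prame, the founding member, had reads in 4 of the 12 libraries, at up to 11.4. Pramel3 was at 0, 0 and 0.87 in WT DMSO and at 7.04, 1.87 and 3.19 in WT UNC0638, 11.4-fold higher on 14 reads against 1 (95% counting interval 1.73 to 482). Pramel5 had reads in 1 library, at 3.99, AA792892 in 1, at 1.60, and Pramel4 in none. The 7 members not named by the rule stayed at or below 3.02 in the time course, 1.89 in the washout, 28.4 in the sorted cells and 9.68 in the Dppa4 experiment.

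Several members share sequence with other genes, and their reads may have been assigned at random among copies. All 100-base stretches of BC061212 also occurred in other annotated genes, as did 77.4% of those of Pramel4, 69.5% of D5Ertd577e, 62.1% of Pramel3, 39.8% of BC080695, 26.5% of Pramef25, 22.8% of AA792892 and 17.9% of Pramef6. No stretch of Pramel6, Pramel7, Pramel1, Pramef8, Pramef12 or Prame was shared. Of the 27 relatives, 19 of 21 measured were higher after 24 h of dTAG, 20 of 25 after 7 d and 22 of 22 after 15 d, and 23 of 27 were higher in DMSO 2CLCs than in mESCs. The shares of all genes higher in these comparisons were 5.33%, 7.08%, 7.45% and 18.6%. The overlapping antisense RNA Pramef12os and its partner Pramef12 are uncertain against each other where strand was not used in counting.

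Known partners and targets of the family were read from a list of 18 genes. The list covered the CUL2 ligase, DNA methylation and retinoic acid signalling, with Ezh2 besides. Of the 18, 3 were higher and none lower after 24 h of dTAG (Dnmt3a, Rarb and Cyp26a1), where 5.33% of all genes were higher. After 7 d, 1 was higher (Rarb) and 1 lower (Stra8), where 7.08% and 5.14% of all genes were, and none passed at 15 d, where 9.21% did. At 24 h, Rarb was at 1.28 in DMSO and 8.33 in dTAG and Cyp26a1 at 1.41 and 4.65. Dnmt3a, a de novo DNA methyltransferase, was at 853 in DMSO and 1733 in dTAG at 24 h. Cul2, the ligase scaffold, was at 584 in DMSO and 649 in dTAG at 7 d, and Uhrf1 was at 4637 and 4885. Dnmt1 was at 2438 and 2109. Between DMSO mESCs and 2CLCs, 3 of the 18 were higher (Rxra, Rarb and Cyp26a1) and 3 lower (Tet1, Tet2 and Rara), where 18.6% and 8.04% of all genes were, with Rxra, a retinoid receptor, at 323 and 2563, and Tet1, a 5-methylcytosine oxidase, at 9059 and 3419. In the Dppa4 experiment, 16 of the 18 were tested, and Dnmt3b, a paralogue of Dnmt3a, was the 1 that fell in the KO, by 1.09 in DMSO (SE 0.28, limma adjusted p = 0.0287) and by 1.22 in UNC0638 (SE 0.28, limma adjusted p = 0.0215). None of the 18 passed for UNC0638 in either genotype.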

How the data were processed

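RNA was measured by RNA-seq in 45 libraries. The authors trimmed reads (Trim Galore 0.6.7), aligned them to mm10 (STAR 2.7.10), placing multi-mapping reads at 1 random site, counted them per gene with TE Counts on GENCODE annotation and normalized with DESeq2 1.34.0 in R 4.1.0. The deposited values are gene signal, that is normalized counts (counts divided by size factors), as group means for 3 experiments and per library for the Dppa4 experiment. Tables of the authors' own comparisons (fold changes and p-values) were not used, nor were the repeat tables.

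Here, whole reads were recovered for the Dppa4 libraries by dividing by the value of 1 read (100% of values whole within 0.01). The main test was limma 3.58.1 with a trend on log2(normalized count + 1), for genes passing edgeR's filterByExpr, over all 4 groups, with Benjamini-Hochberg adjustment. edgeR and DESeq2 on the recovered reads were alternatives. Group means were compared with a pseudocount of 1, without a test. The test was checked on simulated counts with a dispersion of 0.05, a check of the code that says nothing about power for low, variable members. Intervals and floors (3 reads over a group) cover counting error only.

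Groups came from the labels. Same-numbered WT libraries deviated together (correlations 0.285, 0.111 and 0.490), which meets the limit of 0.1 set for pairing, and KO libraries did not (0.197, -0.099 and 0.006). The pairing rests on these correlations alone, since the labels name 3 clones per genotype without saying whether equal numbers are the same clone. The p-values measure the spread between these clones.

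A member was named when it was called in the Dppa4 experiment, was among the 10 members with the highest group value of an experiment, or was Prame, Pramel1 or Pramel3 to Pramel7. Members, lists and tests were chosen with earlier results of these data known. Promoters came from RefSeq (GRCm38.p6), and coordinates and shared stretches from GENCODE vM21 (GRCm38), where all 22 members had the same versioned identifier.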

Additional observations from a re-analysis of the deposited data

How the results depend on the processing

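Of 125 alternative counts of members called, 111 stayed within 1.5 times the reported count, and no member's called change reversed. For Recovery against DMSO at 15 d, 3 members passed the limit with a pseudocount of 1, 6 with 0.5 and 1 with 5. For UNC0638 in the KO, the 1 called member became 0 with no filter (Pramel6 at adjusted p = 0.0511), which tests more genes, and leaving out single libraries gave 0 to 1. For KO against WT in DMSO, the 1 called member became 2 with no minimum fold change and 2 with edgeR and the replicate block, chosen after the data were seen, and leaving out single libraries gave 1 to 2. For KO against WT in UNC0638, limma called 0 members, edgeR 1 (Pramef25), DESeq2 1 (BC061212), no filter 1 (Pramef25), the replicate block 2 (Pramef25 at adjusted p = 0.0375 and BC061212 at adjusted p = 0.0449), edgeR with the replicate block 1 (Pramef25), and leaving out single libraries 0 to 1. Where the filter applied, Pramef25 and BC061212 had passed it through their WT libraries, so their calls are no support for a lower KO level. Likewise, Pramel6 had passed it through its UNC0638 libraries, so its call in the KO is no support for a rise. The cause of the differing calls was not tested. Over all genes, the 80 calls for UNC0638 in the KO became 37 with edgeR, 245 with DESeq2, 12 with no filter, 155 with the replicate block and 132 with edgeR and the block, and 2 without the second, 365 without the first and 31 without the third KO UNC0638 library. The 765 for KO against WT in DMSO became 286 without the second WT DMSO library, and the 567 in UNC0638 became 854 with DESeq2 and 190 without the second WT UNC0638 library. Between genotypes, the block rests on replicate numbers that the genotypes share only as numbers. The paired fits with the replicate block changed no other limma call of a member. UNC0638 in WT, and the difference between genotypes, gave 0 members under every alternative run. TMM scaling moved the median of all genes by under 0.1 on the log2 scale everywhere.

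For the time course, the washout and the sorted cells, edgeR, DESeq2, leaving out a library and a clone block were not run, because those tables hold group means. No paired analysis was possible for these because the columns carry no replicate. The count over all genes depended on the pseudocount there: 2775 genes at 24 h became 4560 with 0.5 and 807 with 5, 2799 at 15 d became 4592 and 1047, and 1512 for Recovery against DMSO became 3091 and 325, while group means of at least 10 gave 1051, 1132 and 495. Without the highest member of the experiment, the log2 ratio of the summed family level between dTAG and DMSO was 0.43 in place of 0.47 at 24 h, 1.31 in place of 0.82 at 7 d, 2.14 in place of 1.14 at 15 d (without Pramef8), 0.95 in place of 1.13 in sorted mESCs and 0.75 in place of 0.62 in 2CLCs.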

Other observations

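Germ-line genes were also read, since PRAME-like genes are known from the germ line. Of 6 genes of male germ cells (Ddx4, Dazl, Sycp1, Sycp3, Tex14 and Stra8), none passed the limit after 24 h of dTAG, where 8.78% of all genes did. After 7 d, 1 was lower (Stra8, which is also on the list of partners and targets above), where 5.14% of all genes were. In DMSO 2CLCs, 2 were higher than in mESCs, where 18.6% of all genes were. The summed normalized count of the 6 was 922 at DMSO 7 d and 694 at dTAG 7 d. Of 5 oocyte genes (Gdf9, Bmp15, Zp3, Oosp1 and Figla), 4 were measured at 7 d and 1 was higher with dTAG, where 7.08% of all genes were. The summed level of the oocyte genes was 25.2 in DMSO and 30.6 in dTAG.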
